A study of Mus musculus with 4 samples.

Results

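Eosinophil granule and receptor genes were followed in *in vitro* MDSCs, immature myeloid cells grown from mouse bone marrow (BM). The 8 genes were taken by symbol from the 24346 genes in the table of each library. They encode the granule proteins eosinophil peroxidase (*Epx*) and major basic protein (*Prg2*), the eosinophil-associated ribonucleases *Ear1*, *Ear2*, *Ear6* and *Ear10*, and the receptors *Il5ra* and *Ccr3*. Eosinophils are granulocytes that store cationic proteins and ribonucleases in their granules and release them in allergy and in the defence against helminths. The transcripts of these granule proteins are made mostly by developing cells in the BM, and interleukin-5 drives their expansion and maturation. Granulocyte-macrophage colony-stimulating factor (GM-CSF) signals through the same common beta chain as interleukin-5, whereas granulocyte colony-stimulating factor (G-CSF), the main growth factor of neutrophils, has a receptor of its own.

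BM cells of C57BL/6J mice were cultured for 4 days with 40 ng/ml GM-CSF, which both groups received. The Control group had no G-CSF and the G-CSF group had 5 ng/ml G-CSF, with 2 libraries each, and the study used female mice of 6 to 8 weeks. The stranded mRNA libraries were sequenced as 75-base single reads. The paper describes the libraries of a group as biological replicates without saying whether cultures or animals were separate, and p-values measure the spread between these libraries. Values were taken as FPKM, reads divided by transcript length and by library size, a unit inferred from the values. Steps between the lowest values gave an estimated depth of 13.4 and 14.15 M reads in the Control libraries and 12.45 and 15.7 M reads in the G-CSF libraries, which allowed FPKM to be turned into estimated reads.

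The extraction label names liver tissue, whereas the source label names *in vitro* MDSCs. The hepatocyte genes *Alb*, *Apoa1*, *Ttr*, *Cyp3a11* and *Tat* were listed at 0 in every library, and *Serpina1a*, the remaining gene of that list of 6 and its most abundant, reached 0.169 FPKM at most. The summed hepatocyte FPKM was 0.05 and 0.09 in Control against 0.0 and 0.17 with G-CSF. The MDSC surface gene *Itgam*, which encodes CD11b, stood at 519.8 and 515 FPKM in Control against 395 and 416 FPKM with G-CSF. *Ly6g* was not analysed here.

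Transcripts of *Epx*, *Prg2*, *Ear2* and *Ear6* were plentiful in every library and those of *Ear1* less so, while *Ear10* was listed at 0 and the receptor genes were near the limit of what this depth can show. The summed FPKM of the 8 genes was 553 and 655 in Control against 362 and 327 with G-CSF. This corresponds to 0.0825% and 0.102% of all FPKM in Control and to 0.0563% and 0.0507% with G-CSF. Both G-CSF sums were below both Control sums, with means of 604 ± 72.25 and 344 ± 24.5 FPKM (SD, n = 2 each). *Prg2* held the most of this sum, between 40.3% and 48.9% in the 4 libraries. Differences were tested across 12053 genes with limma on log2(FPKM + 0.1), with Benjamini-Hochberg (BH) adjustment of the p-values over all of them. A fold change on this scale understates the change of genes with low values. A gene passed at an adjusted p under 0.05, and it was called when its fold change was also over 2. A gene was tested when 2 libraries each held 10 or more of its estimated reads and the 4 libraries together held 15, and 5 of the 8 genes met this filter on low values. Of these 5 genes, 3 passed as lower with G-CSF, against 11.2% of all genes tested, and 0 passed as higher, against 12.4% of all genes. *Ear6* alone was called, as lower, against 0.896% of all genes. The median log2 fold change of the 5 genes was -0.63, and that of all genes tested was 0.0007. Both G-CSF values were below both Control values in 3 of the 5 genes and in 32.5% of all genes. The count of 3 depended on 1 library and on the filter, since 5 of 5 passed without Control replicate 1, against 5.48% of all genes as lower, and only *Ear6* passed when no filter was applied, against 4.58%. The log2 fold changes of *Epx* and *Prg2* were the same without the filter. FPKM gives a share of a library, and the paper reports that total cell numbers rose with G-CSF. In these mixed cultures, fewer cells of a type, more cells of other types and less RNA per cell cannot be told apart.

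**Figure D1:**
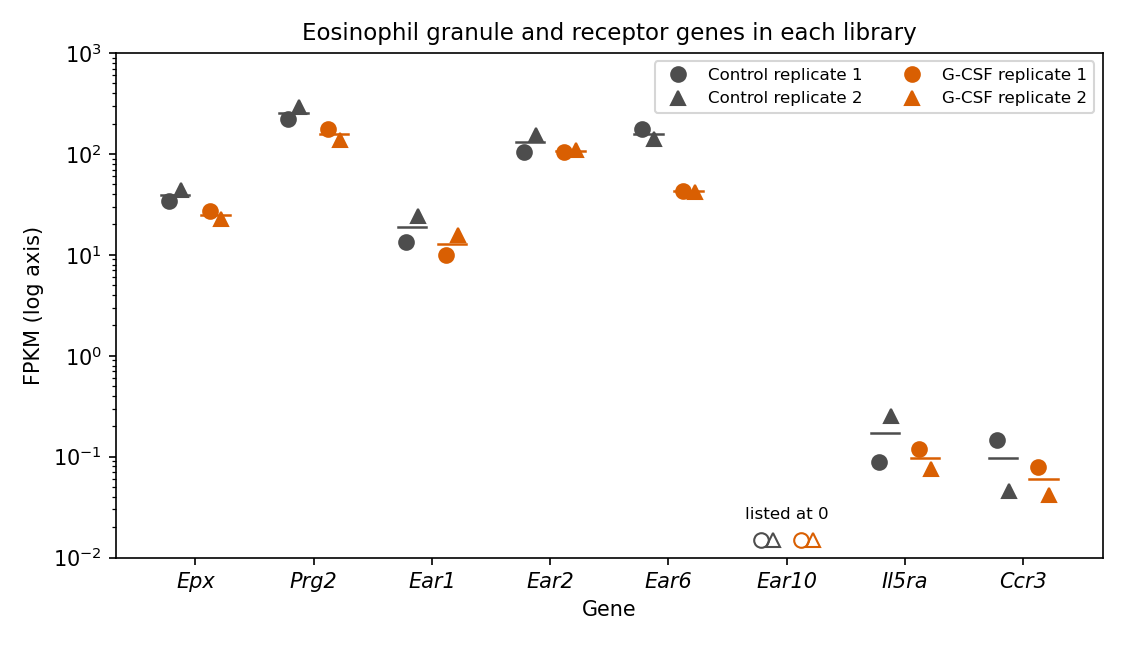
FPKM (log axis) of the 8 eosinophil genes in the 2 Control libraries (grey) and the 2 G-CSF libraries (orange), with circles for replicate 1, triangles for replicate 2 and a line at each group mean. Open symbols mark *Ear10*, listed at 0 in all 4 libraries; the G-CSF values of *Epx*, *Prg2* and *Ear6* lie below their Control values, and *Il5ra* and *Ccr3* stay below 0.3 FPKM.

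*Epx* encodes the peroxidase of eosinophil granules, which oxidises bromide and thiocyanate with hydrogen peroxide. Its FPKM was 34.5 in Control replicate 1, 43.5 in Control replicate 2, 27.3 in G-CSF replicate 1 and 22.9 in G-CSF replicate 2. The groups did not overlap, and the mean was 39.0 ± 6.36 FPKM in Control against 25.1 ± 3.10 FPKM with G-CSF (SD, n = 2 each). *Epx* was lower with G-CSF by limma (log2 fold change -0.63, standard error 0.126, BH-adjusted p = 0.0176). At least 841 reads were estimated for it in each library. With no filter on low values its adjusted p from limma was 0.0595, the highest of 12 alternatives without a replicate block, whose range began at 0.0037 (BH). *Epx* lies on chromosome 11 of GRCm38 from 87863997 to 87875536, and 59.6 kb separate it from *Mpo*, the gene of the related peroxidase of neutrophil and monocyte precursors. *Mpo* stood at 148 and 133 FPKM in Control against 399 and 404 FPKM with G-CSF. Its log2 fold change was 1.52 (standard error 0.0598, BH-adjusted p = 0.000146 from limma), opposite in direction to that of *Epx*. *Lpo*, a further peroxidase gene between them, was at 0.055 FPKM or less.

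*Prg2* encodes major basic protein, the crystalline core of the eosinophil granule. Its FPKM was 223 in Control replicate 1, 292 in Control replicate 2, 177 in G-CSF replicate 1 and 136 in G-CSF replicate 2. All G-CSF values lay under the Control values, and the lowest Control and the highest G-CSF library were closer to each other than the libraries within Control. The means were 257 ± 48.9 FPKM in Control against 156.5 ± 28.9 FPKM with G-CSF (SD, n = 2 each). The log2 fold change of *Prg2* was -0.72 (standard error 0.156, BH-adjusted p = 0.0230 from limma). Without the filter the adjusted p from limma was 0.0744, within a range of 0.00478 to 0.0744 over the same 12 alternatives (BH). *Prg2* lies on chromosome 2 from 84980461 to 84983632, followed 4563 bases further on by *Prg3*, which encodes a homologue of major basic protein. *Prg3* stood at 10.9 and 15.1 FPKM in Control against 9.54 and 7.43 FPKM with G-CSF. It had the same order of libraries as *Prg2*, but it did not pass (log2 fold change -0.60, standard error 0.179, BH-adjusted p = 0.0551 from limma). Without Control replicate 1 the adjusted p of *Prg3* was 0.0204, and without G-CSF replicate 1 it was 0.0382 (limma, BH), within a range of 0.0204 to 0.157 over the 12 alternatives, of which voom on estimated reads (0.0499) also let it pass. With the replicate block it was 0.0269.

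The granule protein genes kept close proportions within a library. The ratio of *Prg2* to *Epx* in FPKM was 6.46 and 6.71 in Control against 6.49 and 5.95 with G-CSF. For *Prg2* to *Prg3* it was 20.5 and 19.3 in Control against 18.6 and 18.3 with G-CSF. These ratios are descriptions of the libraries and were not tested. The 8 eosinophil genes were left out of a search for genes of similar pattern. Among 10955 other genes with a mean of at least 1 FPKM, the pattern most like that of *Epx* over the 4 libraries was that of *Mapre3*, *Trim36*, *Gcm2*, *Fam120aos* and *Prg3*. The distance was taken between log2(FPKM + 0.1) values after subtraction of each gene's mean, and it ran from 0.098 for *Mapre3* to 0.126 for *Prg3*. For *Prg2* the nearest of these other genes were *Gbp8* (distance 0.126), *Prg3* (0.129), *AA414768* (0.187), *Rasgef1b* (0.188) and *Mapre3* (0.189). *Prg3* and *Mapre3* stood on both lists, and apart from *Prg3* these neighbours had FPKM values between 0.625 and 4.5.

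The *Ear* genes encode ribonucleases of the RNase A superfamily, the mouse relatives of human eosinophil cationic protein and eosinophil-derived neurotoxin. *Ear6* had 177 FPKM in Control replicate 1, 141 FPKM in Control replicate 2, 42.5 FPKM in G-CSF replicate 1 and 42.4 FPKM in G-CSF replicate 2. The G-CSF libraries were nearly equal and both lay far below the Control libraries. With 2 libraries, so close a pair gives no precise measure of the spread. *Ear6* fell from 159 ± 25.8 FPKM to 42.5 ± 0.099 FPKM (SD, n = 2 each). Its log2 fold change of -1.89 was called (standard error 0.101, BH-adjusted p = 0.000521 from limma). The Control level was 3.71 times the G-CSF level on the fitted scale. By log2 fold change *Ear6* was at rank 6 of the 108 genes called lower. Between 362 and 1622 reads were estimated for it in each library. The call of *Ear6* held in each of the 12 alternatives, with log2 fold changes from -2.06 to -1.73 and adjusted p-values of at most 0.0117 (limma, BH).

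*Ear2* had 105 FPKM in Control replicate 1, 155 FPKM in Control replicate 2, 104.9 FPKM in G-CSF replicate 1 and 109.8 FPKM in G-CSF replicate 2. Control replicate 2 was the high library, and the other 3 lay close together, so that the groups overlapped. The log2 fold change of *Ear2* was -0.25 (standard error 0.162, BH-adjusted p = 0.304 from limma). Without Control replicate 1 it was -0.53 and passed (limma, BH-adjusted p = 0.00711), and without Control replicate 2 it was 0.032 (BH-adjusted p = 0.769). These 2 values are also the lowest and the highest adjusted p over the 12 alternatives. *Ear1* had 13.4 FPKM in Control replicate 1, 24.0 FPKM in Control replicate 2, 9.86 FPKM in G-CSF replicate 1 and 15.7 FPKM in G-CSF replicate 2. In both groups replicate 2 was the higher library, and G-CSF replicate 2 exceeded Control replicate 1. The log2 fold change of *Ear1* was -0.53 (standard error 0.303, BH-adjusted p = 0.250 from limma). Without Control replicate 1 it was -0.94 and passed (limma, BH-adjusted p = 0.0425), and over the 12 alternatives the adjusted p ran up to 0.787. With the replicate block *Ear1* passed (limma, BH-adjusted p = 0.00168), where 16.1% of all genes passed as lower and 16.7% as higher. *Ear10* was listed at 0 in all 4 libraries.

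*Ear6* was lower in relation to *Ear2* and to *Epx* in both G-CSF libraries. The ratio of *Ear6* to *Ear2* in FPKM was 1.69 and 0.908 in Control against 0.405 and 0.386 with G-CSF. For *Ear1* to *Ear2* it was 0.128 and 0.155 in Control against 0.0939 and 0.143 with G-CSF, so that the groups overlapped. The ratio of *Ear6* to *Epx* was 5.14 and 3.235 in Control against 1.56 and 1.85 with G-CSF. *Ear6* thus made up 32.0% and 21.5% of the summed FPKM of the 8 genes in Control and 11.8% and 12.97% with G-CSF. *Ear2* made up 18.99% and 23.65% of that sum in Control and 29.0% and 33.6% with G-CSF. None of these ratios and shares was tested. The sum of the 8 genes without *Ear6* was 376 and 514.5 FPKM in Control against 319 and 285 FPKM with G-CSF, so that the groups did not overlap without it either.

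Reads of some *Ear* genes cannot be assigned to a single gene. Among all 75-base windows of its annotated transcripts, the share found exactly in another gene was 39.3% for *Ear1*, 23.4% for *Ear2* and 32.5% for *Ear10*. These windows were shared among the 3 genes and with *Ear-ps2* and *Ear-ps9*. With up to 2 mismatches allowed, the share of windows matching another gene of the family was 60.1% for *Ear1*, 79.2% for *Ear2* and 43.9% for *Ear10*. The values of *Ear1*, *Ear2* and *Ear10* are therefore uncertain, including the listing of *Ear10* at 0. *Ear6* shared 0.0% of its windows exactly and 3.0% with up to 2 mismatches, a search that left out *Ear3* and *Ear7*, for which no transcript was used here. For *Epx*, *Prg2*, *Il5ra* and *Ccr3* the exact share was 0.0%. Over the coding sequence, *Ear2* was 97.0% identical to *Ear10* (14 of 471 bases differed) and 95.5% identical to *Ear1*. *Ear6* was 88.2% identical to *Ear2*. The first 75 coding bases, the length of a read, show this closeness, with capitals where a base differs from *Ear2* (GENCODE M21).
Ear2: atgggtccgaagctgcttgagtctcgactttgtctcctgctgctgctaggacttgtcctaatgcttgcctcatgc
Ear1: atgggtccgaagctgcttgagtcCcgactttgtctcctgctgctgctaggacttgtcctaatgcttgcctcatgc
Ear10: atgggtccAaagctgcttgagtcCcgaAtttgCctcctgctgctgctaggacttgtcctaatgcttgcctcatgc
Ear6: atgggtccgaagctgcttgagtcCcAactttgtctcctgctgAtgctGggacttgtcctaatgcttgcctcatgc
Over this stretch *Ear1* differed from *Ear2* at 1 base, and *Ear10* and *Ear6* at 4 bases each. The stretch does not stand for the whole coding sequence. Over that, *Ear6* differed from *Ear2* at 55 of 468 bases and *Ear10* at 14 of 471.

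All 4 *Ear* genes lie on chromosome 14 of GRCm38.p6. *Ear1* (43818765 to 43819639), *Ear10* (43922898 to 43923596) and *Ear2* (44102654 to 44103531) form a group, and *Ear6* (51853768 to 51854643) is 7.75 Mb from *Ear2*. Promoter sequences from RefSeq (GRCm38.p6), the 250 bases before an annotated start, were matched for 7 of the 8 genes, all but *Prg2*. For *Ccr3* this stretch (124021721 to 124021970 on chromosome 9) lies within the annotated gene (124017825 to 124031692), so that its sites need not belong to the promoter in use. They were searched on both strands for the GATA words AGATAA and AGATAG with TGATAA and TGATAG, for the ETS-type word GAGGAAG and for the C/EBP-type word TTGCNNAA. At least 1 GATA word was found in *Il5ra* (1 site) and *Ccr3* (2 sites), against 26.5% of 32851 promoters. The C/EBP-type word, present in 9.6% of these promoters, occurred once in *Ear1*, *Ear2* and *Ear10*. The ETS-type word (10.6% of promoters) was in none of the 7, and *Epx* and *Ear6* held none of the words. Upstream of the start, *Ear1* and *Ear2* were 99.2% identical and *Ear6* and *Ear2* 93.0%. The stretch with the C/EBP-type word is shown because *Ear6* alone of the 4 *Ear* genes lacks the word there. Over its 47 bases *Ear6* differed from *Ear2* at 4 bases and *Ear10* at 7, and capitals mark a base that differs from *Ear2*.
Ear2: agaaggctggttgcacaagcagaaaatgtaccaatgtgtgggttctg
Ear1: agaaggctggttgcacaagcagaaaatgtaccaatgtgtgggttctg
Ear10: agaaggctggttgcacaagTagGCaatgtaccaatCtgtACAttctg
Ear6: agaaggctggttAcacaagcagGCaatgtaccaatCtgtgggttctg
These stretches are chr14:44102554-44102600 on the plus strand for *Ear2*, chr14:43819695-43819741 on the minus strand for *Ear1*, chr14:43923654-43923700 on the minus strand for *Ear10* and chr14:51853646-51853692 on the plus strand for *Ear6*. Within the word TTGCACAA of *Ear2*, counted from 1 at its first base, *Ear6* carried the substitution G3A. Further down *Ear6* had 19 bases that the alignment with *Ear2* left unpaired. Later bases of *Ear6* lie in an annotated untranslated region, so that its 93.0% identity and its word search need not describe promoter sequence alone. These are descriptions of sequence, and no binding was measured.

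The receptor genes were barely detected. *Il5ra*, which encodes the alpha chain that binds interleukin-5, had 0.089 and 0.253 FPKM in Control against 0.12 and 0.076 FPKM with G-CSF. This equals about 4, 12, 5 and 4 reads. *Ccr3*, the receptor for eotaxins that guides eosinophils into tissue, had 0.146 and 0.046 FPKM in Control against 0.079 and 0.042 FPKM with G-CSF, or about 6, 2, 3 and 2 reads. The groups overlapped for both genes, neither met the filter, and a difference was not detectable at this depth. In FPKM, *Il5ra* and *Ccr3* thus stood far below *Epx* and *Prg2* in every library. *Siglecf*, an eosinophil lectin chosen for mention after its values were seen, had between 3.15 and 3.45 FPKM (log2 fold change 0.037, standard error 0.12, BH-adjusted p = 0.847 from limma), and its log2 fold change was -0.023 without G-CSF replicate 1.

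Other granule, ribonuclease and peroxidase genes, *Prg3* among them, were read from a list of 19 symbols, which held *Rnase2a* also under its synonym *Ear11*. Of these symbols 16 were in the tables and 6 were tested. Their summed FPKM was 193 and 179 in Control against 435 and 433 with G-CSF, with *Mpo* the most abundant, and without *Mpo* it was 44.7 and 46.0 in Control against 36.3 and 28.5 with G-CSF. *Mpo* passed as higher and *Ang*, the angiogenin gene, as lower, and the median log2 fold change of the 6 was -0.48. For this and the following lists, the shares over all genes tested are the 11.2% lower and 12.4% higher given above. The lower share over all genes was 4.58% with no filter, 5.48% without Control replicate 1, 7.47% without Control replicate 2, 6.55% without G-CSF replicate 1 and 8.4% without G-CSF replicate 2. *Ang* had 3.33 and 3.79 FPKM in Control against 1.605 and 2.52 FPKM with G-CSF (log2 fold change -0.79, BH-adjusted p = 0.0448 from limma). It passed in 6 of 12 alternatives, with adjusted p-values from 0.0134 to 0.123 (limma, BH). It did not pass without Control replicate 1 (0.0748), Control replicate 2 (0.123) or G-CSF replicate 1 (0.117). *Rnase6*, the gene of an antimicrobial ribonuclease, had 12.1 and 10.4 FPKM in Control against 8.65 and 5.63 FPKM with G-CSF. With all libraries it did not pass (log2 fold change -0.67, BH-adjusted p = 0.0513 from limma), whereas it passed in 3 of 12 alternatives, without G-CSF replicate 1 (0.0103), with median-ratio scaling (0.0498) and with voom on estimated reads (0.0145), in a range of 0.0103 to 0.144, and also with the replicate block (0.00305). *Rnase2a*, also known as *Ear11*, had 4.49 and 7.165 FPKM in Control against 5.83 and 3.32 FPKM with G-CSF, so that the groups overlapped. *Ear3* had 2.59 and 0.263 FPKM in Control against 0.029 and 0.004 FPKM with G-CSF. *Rnase2b* went the other way, with 0 and 0 FPKM in Control against 0.291 and 0.232 FPKM with G-CSF, or about 2 reads in each G-CSF library. *Ear3* had no transcript length in the annotation used, so that no reads could be estimated for it, and it was not tested in the main fit. Its Control values differed widely, with 2.59 FPKM in replicate 1 and 0.263 FPKM in replicate 2, and its G-CSF values were near 0. With no filter 11 genes of this list were tested, *Ear3* among them. Of these, 0 passed as lower and 2 as higher, against 4.58% and 5.43% of all genes. With at least 0.1 FPKM required in 2 libraries, 8 were tested, again with 0 lower and 2 higher (7.94% and 9.02% of all genes). *Ear4*, *Ear14*, *Rnase1*, *Ang2* and *Ang3* were listed at 0.

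Of 15 listed symbols of eosinophil surface and enzyme genes, 13 were in the tables and 11 were tested. Their summed FPKM was 326 and 336 in Control against 269 and 277 with G-CSF, *P2ry14* being the most abundant gene. With G-CSF 4 passed as lower and 0 as higher, and the median log2 fold change of the 11 was -0.34. The 7 tested MDSC surface genes had a median of -0.35. Which cells of the mixed cultures made the transcripts of either list was not tested. *Alox5*, the 5-lipoxygenase that starts leukotriene synthesis, had 98.5 and 96.1 FPKM in Control against 72.7 and 72.5 FPKM with G-CSF. Its log2 fold change of -0.42 (standard error 0.0423, BH-adjusted p = 0.00362 from limma) passed in all 12 alternatives. *Alox15*, a lipoxygenase of eosinophils and macrophages, had 2.16 and 2.27 FPKM in Control against 1.31 and 0.957 FPKM with G-CSF (log2 fold change -0.92, BH-adjusted p = 0.0195 from limma). The adenosine receptor gene *Adora3* had 8.135 and 7.62 FPKM in Control against 4.675 and 5.68 FPKM with G-CSF (log2 fold change -0.60, BH-adjusted p = 0.0168 from limma). The inhibitory receptor gene *Pirb* had a log2 fold change of -0.27 (BH-adjusted p = 0.0284 from limma). The count of 4 was 1 without Control replicate 1 or with no filter, when *Alox5* alone passed, and 2 without Control replicate 2, where the shares over all genes also fell, to 5.48%, 4.58% and 7.47%. *Alox15* did not pass without either Control library or without G-CSF replicate 2 (adjusted p 0.0544, 0.0614 and 0.0566), *Adora3* not without replicate 1 of Control or of G-CSF (0.0594 and 0.0507), and *Pirb* not without either Control library or without G-CSF replicate 1 (0.0531, 0.0917 and 0.0922), all by limma with BH adjustment. Over the alternatives the adjusted p-values ran from 0.0145 to 0.0619 for *Alox15*, from 0.0097 to 0.0594 for *Adora3* and from 0.00974 to 0.0922 for *Pirb* (limma, BH). *Ptgdr2*, the prostaglandin D2 receptor gene, was listed at 0.

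**Figure D2:**
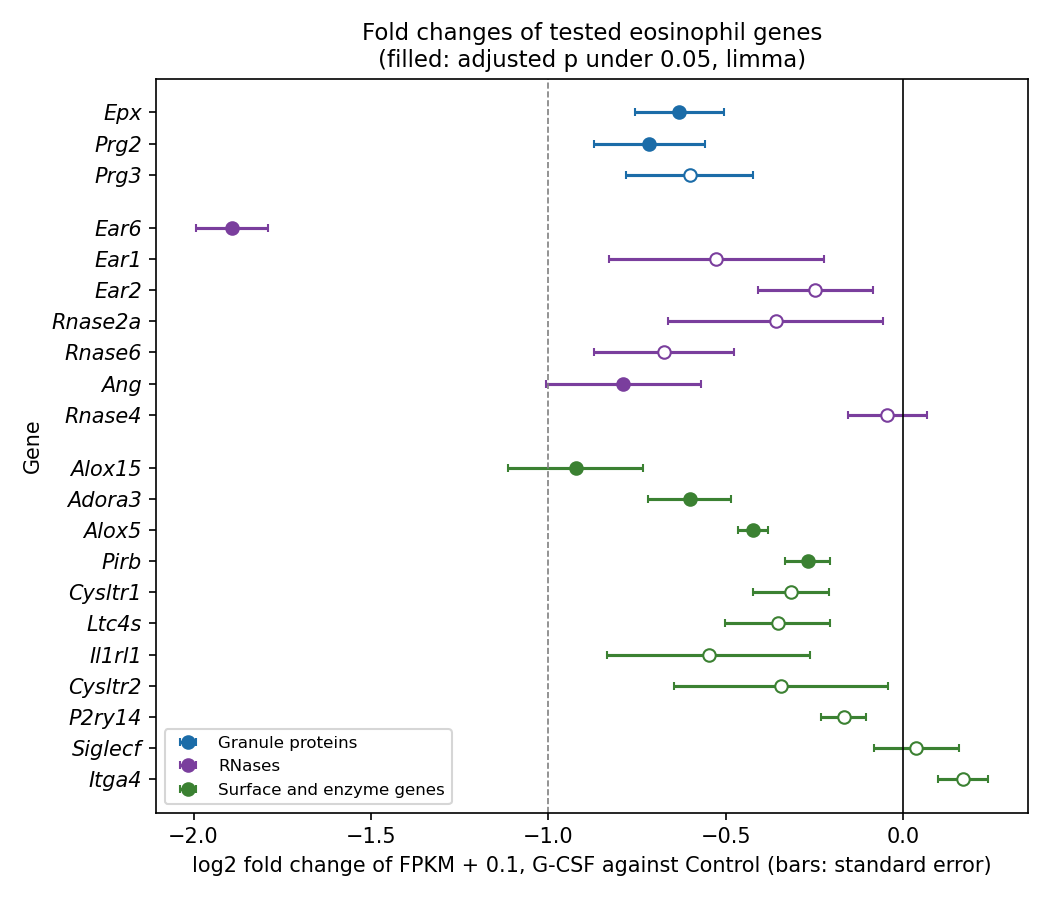
Log2 fold change of FPKM + 0.1 (G-CSF against Control, horizontal axis) with its standard error for the tested granule protein, ribonuclease, and eosinophil surface and enzyme genes, with filled points for an adjusted p under 0.05 by limma and a dashed line at -1. *Ear6*, at -1.89, is the only point beyond the dashed line.

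Interleukin-5 receptor signalling was read from 21 genes, all in the tables, of which 17 were tested. Their summed FPKM was 2102 and 2121 in Control against 1849 and 1926 with G-CSF, with *Csf2rb* the most abundant. The ligand genes *Il5*, *Il3* and *Csf2* were listed at 0 in every library. *Csf2rb*, the common beta chain that pairs with *Il5ra*, had 502 and 525 FPKM in Control against 456 and 470.5 FPKM with G-CSF, and it did not pass (log2 fold change -0.15, BH-adjusted p = 0.0663 from limma), except with voom on estimated reads (0.0259, in a range of 0.0259 to 0.249) and with the replicate block (0.0254). Of the 17 genes 7 passed as lower, against 11.2% of all genes, and 0 as higher, against 12.4%, with a median log2 fold change of -0.14. The count was 4 with no filter, without Control replicate 1, without Control replicate 2 or without G-CSF replicate 1, where the shares over all genes fell to 4.58%, 5.48%, 7.47% and 6.55%. *Csf2ra*, the alpha chain for GM-CSF, had 137 and 136 FPKM in Control against 96.9 and 103 FPKM with G-CSF (log2 fold change -0.45, BH-adjusted p = 0.00388 from limma). *Jak2*, the kinase bound to the common beta chain, had a log2 fold change of -0.38 (BH-adjusted p = 0.00902 from limma). The feedback inhibitors *Socs1* and *Cish* had log2 fold changes of -0.47 and -0.32 (BH-adjusted p = 0.00556 and 0.00745 from limma). *Csf2ra*, *Jak2*, *Socs1* and *Cish* passed in all 12 alternatives.

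Among 12 eotaxins, other CC ligands and chemokine receptors beside *Ccr3*, which included *Xcr1* and *Cx3cr1* and were all in the tables, 8 were tested, 1 passed as lower, near the 11.2% of all genes, and 0 as higher, with a median log2 fold change of -0.16. The summed FPKM was 454 and 418 in Control against 399 and 375 with G-CSF. *Ccl11*, which encodes eotaxin-1, was listed at 0, and *Ccl24*, which encodes eotaxin-2, had 0.371 FPKM or less. The gene that passed was *Ccr1*, the most abundant of the list and the receptor that shares *Ccl5* with *Ccr3*, with 149 and 146 FPKM in Control against 126 and 131 FPKM with G-CSF. Its log2 fold change was -0.20 (BH-adjusted p = 0.0227 from limma). *Ccr1* did not pass without Control replicate 1, Control replicate 2 or G-CSF replicate 1 (adjusted p 0.0951, 0.0598 and 0.0959 by limma and BH, in a range that began at 0.0103).

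The 14 transcription factors and other regulators of the eosinophil lineage were all tested, with 3 lower, 1 higher and a median log2 fold change of -0.11. Their summed FPKM was 1249 and 1219 in Control against 1099.9 and 1136 with G-CSF, with *Spi1* the most abundant. *Trib1*, a pseudokinase that eosinophil development needs, had 6.56 and 6.87 FPKM in Control against 3.89 and 3.64 FPKM with G-CSF (log2 fold change -0.82, standard error 0.101, BH-adjusted p = 0.00552 from limma). *Gfi1*, a repressor that promotes the neutrophil fate, had 8.315 and 7.85 FPKM in Control against 15.2 and 12.4 FPKM with G-CSF (log2 fold change 0.76, standard error 0.109, BH-adjusted p = 0.00748 from limma). *Id2*, an inhibitor of basic helix-loop-helix factors, had a log2 fold change of -0.33 (BH-adjusted p = 0.00772 from limma). *Trib1*, *Gfi1* and *Id2* passed in all 12 alternatives. *Cebpb* had a log2 fold change of -0.30 (BH-adjusted p = 0.0254 from limma), but did not pass without replicate 1 of Control or of G-CSF (adjusted p 0.0815 and 0.0854, limma and BH) or with no filter (0.0694), in a range of 0.00947 to 0.0854. *Cebpa*, an early granulocyte factor chosen for mention after its values were seen, had 25.0 and 22.4 FPKM in Control against 28.0 and 27.6 FPKM with G-CSF. It did not pass (log2 fold change 0.23, BH-adjusted p = 0.0548 from limma), but passed as higher without Control replicate 1 (0.0417) and with voom on estimated reads (0.0359), in a range of 0.0359 to 0.217 over the alternatives, and with the replicate block (0.0214). The higher count was 2 with voom on estimated reads and with the replicate block, against 14.1% and 16.7% of all genes. The lower count was 5 in both, against 13.7% and 16.1%, and 2 with no filter, against 4.58%. *Spi1* did not pass (log2 fold change -0.18, BH-adjusted p = 0.0838 from limma), but it passed as lower with voom on estimated reads (0.043). With the replicate block *Spi1* also passed as lower (limma, BH-adjusted p = 0.0195). *Gata1* and *Gata2*, the GATA factors of the eosinophil, mast cell and basophil lineages, were chosen for mention after their values were seen. *Gata1* had 0.749 and 0.874 FPKM in Control against 0.616 and 0.68 FPKM with G-CSF (log2 fold change -0.28, BH-adjusted p = 0.362 from limma). *Gata2* had 5.16 and 3.99 FPKM in Control against 3.39 and 2.85 FPKM with G-CSF (log2 fold change -0.53, BH-adjusted p = 0.0580 from limma), and it passed without Control replicate 2 (0.0354), with voom on estimated reads (0.0308) and with the replicate block (0.0116). Over the alternatives the adjusted p of *Gata2* ran from 0.0308 to 0.224.

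Markers of other cell types moved beside the eosinophil genes, and their part in the results for *Epx*, *Prg2* and *Ear6* was not tested. Of the 14 mast cell and basophil genes 9 were tested, 6 passed as lower and 0 as higher, and the summed FPKM was 164 and 176 in Control against 100.2 and 113 with G-CSF. *Mcpt8*, a basophil protease gene and the most abundant of them, had 57.4 and 56.8 FPKM in Control against 34.9 and 39.8 FPKM with G-CSF (log2 fold change -0.61, BH-adjusted p = 0.00473 from limma), close to that of *Epx*. *Kit*, *Prss34* and *Cpa3* also passed as lower (log2 fold changes -0.70, -0.65 and -0.45, BH-adjusted p = 0.00563, 0.0059 and 0.0084 from limma). The mast cell protease genes *Tpsab1* and *Mcpt4* were listed at 0 in every library. *Hdc*, the histidine decarboxylase gene, was called, with 24.1 and 33.9 FPKM in Control against 11.1 and 15.04 FPKM with G-CSF (log2 fold change -1.14, BH-adjusted p = 0.0112 from limma). Its log2 fold change was -0.89 without Control replicate 2 and -0.92 without G-CSF replicate 1, below a fold change of 2. Of 15 neutrophil genes 14 were tested, 8 passed as lower and 4 as higher, and the summed FPKM, mostly *S100a8* and *S100a9*, was 81124 and 70558 in Control against 55558 and 55747 with G-CSF. The 4 higher genes were those of the primary granules, *Mpo*, *Prtn3*, *Ctsg* and *Elane*, of which the first 3 were called (log2 fold changes 1.52, 1.425 and 1.25, with 0.99 for *Elane*). *Elane* was also called without Control replicate 1 (1.13) and without G-CSF replicate 2 (1.11). The lower count was 5 without Control replicate 1 (5.48% of all genes) and 4 with no filter (4.58%). *Camp*, *Ltf* and *Mmp9* were called as lower, with log2 fold changes of -1.81, -1.32 and -1.08 (BH-adjusted p = 0.000538, 0.00326 and 0.0056 from limma), that of *Camp* close to the -1.89 of *Ear6*. Without G-CSF replicate 1 *Mmp9* was at -0.85, below a fold change of 2. Of 13 listed symbols of monocyte and macrophage genes, 12 were in the tables, and all of these were tested. Of them 6 passed as lower and 0 as higher, with a sum of 1942 and 2011 FPKM in Control against 1722 and 1805 FPKM with G-CSF, *Ly6c2* being the most abundant. This count was 4 without Control replicate 1 or G-CSF replicate 2, 2 without Control replicate 2 or with no filter and 0 without G-CSF replicate 1, beside 4.58% to 8.4% of all genes in these settings. Of 11 dendritic cell genes 10 were tested, 7 passed as lower and 0 as higher, with a sum of 3442 and 2938 FPKM in Control against 1893 and 1530.4 FPKM with G-CSF, *Cd74* being the most abundant. *H2-Ab1* and *H2-Eb1* were called as lower (log2 fold changes -1.09 and -1.04, BH-adjusted p = 0.00476 and 0.00556 from limma), but were at -0.955 and -0.88 without Control replicate 1 and at -0.92 and -0.89 without G-CSF replicate 2. Of 15 erythroid and megakaryocyte genes 5 were tested and 1, *Ppbp*, passed as lower, with a sum of 54.4 and 55.0 FPKM in Control against 48.5 and 49.0 FPKM with G-CSF, *Pf4* being the most abundant. Of 9 lymphoid genes 5 were tested, and *Cd3d* and *Cd79a* passed as lower, *Cd3d* being called (log2 fold change -1.04, BH-adjusted p = 0.0228 from limma), with a sum of 17.6 and 13.8 FPKM in Control against 21.4 and 14.8 FPKM with G-CSF, *Nkg7* being the most abundant and *Ncr1* listed at 0. Neither *Cd3d* nor *Cd79a* passed without Control replicate 1 (adjusted p 0.0685 and 0.0889) or without G-CSF replicate 2 (0.0647 and 0.0595), when *Nkg7* passed as higher instead (0.0437 and 0.0419), and *Cd3d* did not without Control replicate 2 (0.0676), by limma with BH adjustment. With no filter both failed to pass (0.0685 and 0.0563), as did *Cd79a* with voom on estimated reads (0.0536), in ranges of 0.0176 to 0.0685 for *Cd3d* and 0.0165 to 0.0889 for *Cd79a*. Of 8 MDSC surface genes 7 were tested, 4 passed as lower and 0 as higher. Their sum was 2479 and 2535 FPKM in Control against 2090.4 and 2207 FPKM with G-CSF, *Ly6c2* again being the most abundant. Among them *Cd33* passed with a log2 fold change of -0.61 (BH-adjusted p = 0.00159 from limma).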

How the data were processed

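Expression in *in vitro* MDSCs was read from 4 tables that the authors deposited, 2 of Control and 2 of G-CSF libraries. The submitters' processing notes name TopHat2 2.0.13, Bowtie2 2.2.3, SAMtools 0.1.19, Cufflinks 2.2.1 and the mm10 build. No source states the unit, and the deposited values were treated as FPKM because they step with transcript length and Cufflinks is among the tools. Depth was estimated from genes with up to 8 reads and transcripts of 600 to 4000 bases, shortened by 210 bases, where 66.8% of 1899 values lay within 0.05 of a whole read, against 10.0% by chance. Estimated reads carry counting error, so that genes with few reads are imprecise. Transcript lengths came from GENCODE M21 (23952 of 24346 genes), positions and promoters from RefSeq GRCm38.p6.

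Tests used limma 3.58.1 in R 4.3.3 (lmFit, then eBayes with a mean-variance trend, two-sided, pseudocount 0.1 FPKM, BH adjustment over 12053 genes), with no covariate. The fit was tested on simulated data. No exact test over 2 against 2 libraries can give a p below 0.333. Sequences were aligned with MAFFT 7.526, and tables and plots were made with Python 3.11.15, pandas 2.3.3, NumPy 2.4.6 and matplotlib 3.10.9. Named genes were all 8 eosinophil genes and the 5 genes most like *Epx* and *Prg2*. From each list came the genes called, up to 4 more with the smallest p, the most abundant gene and defining markers listed at 0. In the lists of other cell types some of these further genes were followed without being described, *Lcn2*, *Ngp*, *Adgre1* and *Mertk* among them. *Lpo*, *Ear3*, *Rnase2b*, *Ccl24* and *S100a9* were added after their values were seen. One further gene chosen for the lists is not reported here and was left out of their counts. The eosinophil genes and the lists were chosen with earlier results of these data known. Alternatives were other pseudocounts (1 and 0.01 FPKM), filters, scalings, voom on estimated reads, no fold threshold, the replicate number as a block, and the omission of single libraries. An omission leaves 1 library in its group, which is assumed to vary like the other group. Genes under the filter or without a transcript length were not tested in the main fit, whereas 16234 genes were tested with no filter.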

Additional observations from a re-analysis of the deposited data

How the results depend on the processing

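The count of 170 genes called between G-CSF and Control was 57 with a pseudocount of 1 FPKM, 80 with at least 1 FPKM required in every library and 2850 with no fold threshold. It ran from 150 to 186 with each library left out in turn. Of the eosinophil genes, 1 was called in each of these settings and 3 with no fold threshold. The causes of these changes were not tested, other than that fewer genes enter with the stricter filter and more are admitted with no fold threshold. The log2 ratio of the summed FPKM of the eosinophil genes, -0.81, was -0.56 without *Ear6* and -1.02 without *Ear1*, *Ear2* and *Ear10*, both chosen after seeing the data, as was leaving out each library (-0.93 to -0.68).

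With 1 library left out, the sign of a log2 fold change turned for *Ear2* (-0.53 to 0.032), *Rnase2a* (-0.76 to 0.039), *Siglecf* (-0.023 to 0.098), *Gp1bb* (-0.48 to 0.024), *Gp9* (-0.45 to 0.098), *Cd79b* (-0.14 to 0.33) and *Pf4* (-0.11 to 0.13), none of which passed with all libraries. The cause was not tested. Over the 78 genes followed, 9 values turned sign, 32 passed only under an alternative and 69 passed only without it.

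Replicate numbers are shared between the groups, but nothing in the labels says what they share, and with 2 pairs the same-numbered libraries deviated together with r = 0.235 across genes, which are not independent replicates. With the replicate block 188 genes were called, 1 of them an eosinophil gene, and *Ear1* passed (limma, BH-adjusted p = 0.00168) beside *Epx*, *Prg2* and *Ear6*, as did *Prg3*, *Rnase6*, *Csf2rb*, *Ccl5*, *Nkg7*, *Gata2*, *Cebpa*, *P2ry14*, *Spi1*, *S100a8* and *AA414768*, which did not without it. The shares over all genes were 16.1% lower and 16.7% higher with the block. *Il5ra* and *Ccr3*, with 12 reads or fewer in each library, were not tested in the main fit. With no filter 7 of the 8 eosinophil genes were tested, these receptor genes among them, and *Ear6* alone passed. A difference in the receptor genes was not detectable at this depth.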
